A study of Mus musculus with 16 samples.

Results

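The genes of this report code for the receptors that respond to glutamate and for the proteins that travel with them, measured in the dorsal hippocampus of mice. They are 36 of the 35328 genes in the count table, taken by symbol: 4 AMPA receptor subunits, 7 NMDA receptor subunits, 5 kainate receptor subunits, 1 delta receptor, 7 metabotropic receptors, 6 TARPs (transmembrane AMPA receptor regulatory proteins), 4 other auxiliary subunits of AMPA receptors and 2 auxiliary subunits of kainate receptors. Of these, 34 passed the filter on low counts and were tested, while Grin3b and Grm6 did not.

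RNA-Seq was performed on 16 mice of the C57Bl6/J strain, 4 per group, with 1 library per mouse. Caffeine mice drank 0.3 g/L caffeine for 2 weeks from 8 to 9 weeks of age, and water mice drank water. Home cage mice rested, whereas learning mice were trained for 3 days in the Morris water maze, a spatial task in which a hidden platform has to be found, and tissue was taken 1 hour after the last trial. The learning mice differ from the home cage mice in handling and swimming as well as in learning, and none of these groups swam without training. Mice are named below by the number in their labels. Where 4 ranges or values are listed without naming groups, the order is home cage water, then home cage caffeine, learning water and last learning caffeine.

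Glutamate is the main excitatory transmitter of the hippocampus. AMPA receptors are the fast cation channels of excitatory synapses, NMDA receptors open only when glutamate binds while the membrane is depolarized and admit calcium, kainate receptors act on both sides of the synapse, and metabotropic receptors signal through G proteins. Auxiliary subunits bind the channels and set their trafficking, gating and synaptic anchoring, and long-term potentiation in field CA1 depends on NMDA receptor opening and on AMPA receptor insertion.

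Libraries held 23078094 to 49949281 counts, of which 0.632% to 0.740% fell on the 36 members. Levels of 1 gene across mice are given as CPM, the count over the library total after TMM scaling, and levels of different genes are compared as RPKM, which also divides by the merged exon length in kb. Markers of CA1, CA2 and CA3 pyramidal cells and of dentate granule cells were above 0 in every library. So were the markers of choroid plexus and thalamus, so a level above 0 does not set the labelled tissue apart from its neighbours. The summed level of 7 choroid plexus markers ran from 299 to 2329 CPM in the home cage water mice and from 111 to 496 CPM in the other 12 mice. Learning water mouse 24 had 11792 CPM of 7 oligodendrocyte markers against 4922 to 8854 CPM in the other 15, and home cage caffeine mouse 17 had the highest share of mitochondrial counts, 4.49% against 3.23% to 3.89%.

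Among the AMPA receptor subunits, Gria1 stood first in RPKM with a mean of 218 over the 16 mice, followed by Gria2 at 72.1, Gria3 at 25.97 and Gria4 at 10.2. The ranges of these 4 over mice did not overlap. Gria1, the subunit whose insertion accompanies potentiation, made up 66.8% ± 1.08 (SD, n = 16) of the summed RPKM of the family. Its level was 1349.8, 1389, 1359 and 1213 CPM in the home cage water mice, 1337, 1248, 1363 and 1195 CPM in the home cage caffeine mice, 1186, 1367, 1377 and 1427 CPM in the learning water mice and 1336, 1340.0, 1282 and 1297 CPM in the learning caffeine mice. The 4 groups overlapped throughout. Gria2, which makes the channel impermeable to calcium once its RNA is edited, ranged over 1013 to 1214, 904 to 1200.5, 948 to 1321 and 1097 to 1271 CPM in the 4 groups. Gria3 ranged over 241 to 269, 242 to 257, 233 to 286 and 246 to 269 CPM and Gria4 over 61.9 to 68.6, 58.9 to 66.7, 62.4 to 68.5 and 63.1 to 66.7 CPM. All groups overlapped for these as well. The coefficient of variation over the 16 mice was 3.99% for Gria4, the lowest of the tested members, 5.13% for Gria3, 5.51% for Gria1 and 10.5% for Gria2.

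Cnih2, a cornichon protein that slows AMPA receptor closing, had the highest mean RPKM of all 36 members, 283. In single mice Cnih2 read 416, 375, 359 and 401 CPM in the home cage water mice, 451, 421, 369 and 399 CPM in the home cage caffeine mice, 401, 401, 380.3 and 276 CPM in the learning water mice and 409.6, 405, 394 and 349.6 CPM in the learning caffeine mice. Learning water mouse 38 was below all other mice. Of the TARPs, which anchor AMPA receptors at the postsynaptic density, Cacng8, the hippocampus-enriched TARP, and Cacng7 led with 51.6 and 42.1 RPKM, or 38.4% and 31.3% of the family. Cacng8 was at 126, 119, 130.4 and 115 CPM in the home cage water mice, 139.5, 121, 117 and 110.5 CPM in the home cage caffeine mice, 110.2, 128, 124 and 118 CPM in the learning water mice and 126, 114, 126 and 112 CPM in the learning caffeine mice, again with all groups overlapping. Cacng3, Cacng2, Cacng4 and Cacng5 followed at 18.6, 13.1, 5.15 and 3.98 RPKM. In the 4 groups Cacng2 (stargazin) ranged over 61.3 to 78.2, 61.99 to 74.8, 68.3 to 77.4 and 69.5 to 76.6 CPM, Cacng3 over 49.04 to 57.8, 49.7 to 64.1, 40.5 to 52.1 and 48.1 to 56.8 CPM and Cacng7 over 96.3 to 117, 102 to 113, 89.02 to 113 and 91.2 to 104 CPM. The other auxiliaries Shisa6, Cnih3 and Shisa9 bind AMPA receptors too and had mean RPKM values of 28.7, 23.2 and 10.1. Cnih3 ranged over 58.7 to 81.4, 46.1 to 76.5, 49.8 to 69.8 and 43.2 to 67.2 CPM and Shisa9 over 41.99 to 60.1, 39.8 to 63.00, 44.5 to 60.4 and 49.7 to 60.8 CPM, wide ranges that overlapped between groups.

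Grin1, the obligate glycine-binding subunit, led the NMDA receptor family with 60.2 RPKM. Its CPM values were 609, 557, 616 and 572 CPM in the home cage water mice, 629.6, 572, 552 and 552 CPM in the home cage caffeine mice, 543, 613, 599 and 551 CPM in the learning water mice and 612, 618, 592 and 560.4 CPM in the learning caffeine mice, with no group apart. Grin2a and Grin2b, the glutamate-binding subunits that dominate in adult forebrain, had 27.4 and 29.8 RPKM, and their ranges over mice overlapped. Dividing by the length of the longest transcript instead of the merged exons exchanged their order (33.6 and 30.8). Grin2b ranged over 636 to 846, 545 to 775, 634 to 865 and 685 to 788 CPM, with the lowest value in home cage caffeine mouse 17, and Grin2a over 431 to 558, 446 to 517, 429.9 to 536 and 469 to 518 CPM. Grin2c followed at 13.2 RPKM. Grin3a, which lowers calcium entry, was at 2.496 RPKM and ranged over 28.00 to 34.5, 28.7 to 30.6, 24.7 to 34.9 and 23.2 to 33.99 CPM. Grin2d, a subunit of interneurons, was at 1.51 RPKM and ranged over 9.75 to 10.8, 9.16 to 12.05, 8.95 to 9.98 and 9.70 to 10.4 CPM. The groups overlapped for both. Grin3b, which did not pass the filter, had 2 to 14 counts per library, and its exons share 1059 bases with Tmem259 on the other strand. Grin1 shares 1307 exon bases with Grin1os and Grin2d 643 with Gm45441, both on the other strand. Whether reads were counted by strand is not stated in the sources used here, so reads of these pairs may be mixed.

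Grik5, a high-affinity subunit that needs a partner to form a channel, made up 63.5% ± 2.40 (SD, n = 16) of the kainate receptor family with 46.2 RPKM. Grik5 reads in single mice came to 215, 226, 229 and 251 CPM in the home cage water mice, 249, 233, 218 and 253 CPM in the home cage caffeine mice, 261, 249, 234 and 215 CPM in the learning water mice and 259, 239.7, 257 and 232 CPM in the learning caffeine mice. The groups overlapped. Grik4, the other high-affinity subunit, was next at 12.5 RPKM and ranged over 52.4 to 94.7, 53.8 to 76.5, 70.1 to 103 and 63.4 to 88.7 CPM. Grik2, Grik3 and Grik1, the subunits that form channels on their own, had 7.69, 4.82 and 1.67 RPKM. Grik2 ranged over 77.9 to 109.7, 82.3 to 108, 99.1 to 134 and 94.5 to 127 CPM, Grik3 over 36.5 to 50.9, 35.6 to 49.1, 36.3 to 46.3 and 38.4 to 52.6 CPM and Grik1 over 10.5 to 12.9, 10.1 to 15.8, 9.07 to 11.5 and 9.76 to 12.3 CPM, with overlap between all groups. The kainate receptor auxiliaries Neto1 and Neto2 were alike in level, at 10.5 and 9.50 RPKM with overlapping ranges, and Neto2 ranged over 48.8 to 64.3, 49.2 to 65.3, 54.6 to 60.4 and 50.2 to 66.00 CPM. The delta receptor Grid1, a synapse organizer that binds cerebellins, had 11.6 RPKM and stood at 71.7, 67.7, 75.2 and 63.2 CPM in the home cage water mice, 72.01, 63.4, 72.8 and 65.4 CPM in the home cage caffeine mice, 62.2, 74.1, 69.1 and 76.1 CPM in the learning water mice and 64.5, 72.4, 64.3 and 67.8 CPM in the learning caffeine mice. No group lay apart.

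Grm5, the postsynaptic receptor coupled to phospholipase C, was 46.8% ± 1.57 (SD, n = 16) of the summed RPKM of the metabotropic receptors, with a mean of 30.03 RPKM. Per mouse it was at 314, 323, 321 and 270.0 CPM in the home cage water mice, 293, 278, 322 and 258 CPM in the home cage caffeine mice, 262, 327, 319 and 378 CPM in the learning water mice and 310.4, 307, 319.5 and 323 CPM in the learning caffeine mice. Learning water mouse 38 was the highest and home cage caffeine mouse 17 the lowest. Grm3 (found on glia and neurons), Grm2 and Grm7 (presynaptic receptors that restrain release) were close together at 11.5, 11.5 and 9.07 RPKM with overlapping ranges. In the 4 groups Grm3 ranged over 29.5 to 41.01, 29.3 to 37.6, 34.7 to 40.99 and 29.9 to 37.1 CPM, Grm2 over 46.5 to 61.6, 40.2 to 60.02, 45.4 to 69.4 and 50.00 to 75.7 CPM and Grm7 over 42.9 to 57.2, 41.2 to 55.2, 53.6 to 61.9 and 50.5 to 59.1 CPM. Grm4 had 1.53 RPKM and Grm8 0.445 RPKM. Grm8 ranged over 3.31 to 7.54, 3.295 to 4.55, 3.77 to 4.85 and 3.12 to 4.93 CPM with 100 to 246 counts per library, and it had the largest coefficient of variation of the tested members, 23.8%. Grm6, a retinal receptor, had 0 or 1 count per library.

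**Figure D1:**
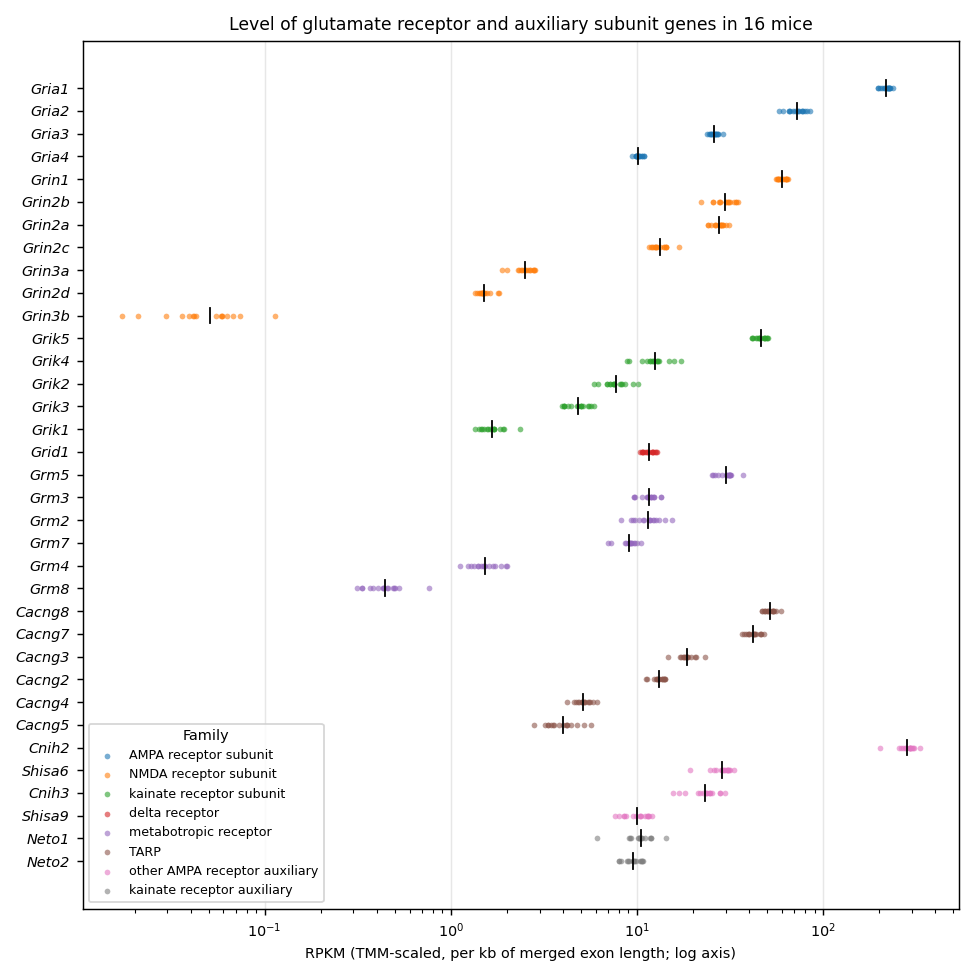
RPKM (log axis) of 35 of the 36 genes in each of 16 mice (points) with the mean (line), grouped by family; Grm6 is left out because it is at 0 in some mice. Cnih2 and Gria1 lie above all other genes, and Grin3b lies at the bottom.

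Some members lie next to each other in the genome. In mm10 with GENCODE M21 gene bounds, Cacng4 (chr11:107732357-107794557) and Cacng5 (chr11:107874605-107915055) are neighbours on the minus strand of chromosome 11, and Cacng7 (chr7:3332955-3368221) and Cacng8 (chr7:3390683-3415648) on the plus strand of chromosome 7. RefSeq start-site windows on GRCm38.p6, which run from 250 bases before to 50 bases after a start, were held for 23 of the 36 members (28 windows). They were searched on both strands for 3 motifs bound by factors that activity induces or activates. These were TGACGTCA, the cyclic AMP response element, TGAGTCA or TGACTCA, the AP-1 site of Fos and Jun, and GCGTGGGCG or GCGGGGGCG, the EGR site. The full cyclic AMP response element occurred in 0 of the 28 windows, against 1.79% of all 32851 windows in the table. The AP-1 site occurred in 1 window (3.57%, against 5.2% of all), that of Cacng5, and the EGR site in 2 (7.14%, against 3.47% of all), those of Grin1 and Grm3. In Grm3 the match begins 4 bases before the start and spans it, and in Grin1 it begins 4 bases after the start. The 12 windows of 8 immediate early genes, the first genes that neuronal activity switches on, held 1 cyclic AMP response element (Dusp1) and 2 EGR sites (Fosb and Nr4a1). The matches that lie wholly before the start are printed 5′ to 3′ on the strand of the gene with the motif in capitals, that of the only member and those of the 3 immediate early genes for comparison. The stretches are chr11:107915243-107915289 (minus strand) for Cacng5, chr7:19310067-19310115 (minus strand) for Fosb, chr15:101266766-101266814 (plus strand) for Nr4a1 and chr17:26508588-26508635 (minus strand) for Dusp1.
Cacng5: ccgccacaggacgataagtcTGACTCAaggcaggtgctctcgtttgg
Fosb: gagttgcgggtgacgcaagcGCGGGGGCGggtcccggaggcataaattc
Nr4a1: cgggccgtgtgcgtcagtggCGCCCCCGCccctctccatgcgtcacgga
Dusp1: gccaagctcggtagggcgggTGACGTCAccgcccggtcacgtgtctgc
A match is a run of letters and not a measured site. The capitals in Nr4a1 are the EGR site read on the opposite strand.

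The first question was whether learning changed the levels of these genes. The average learning response, learning minus home cage averaged over water and caffeine mice, was called for 1 of the 34 members, Neto1, which rose. A gene was called when edgeR's quasi-likelihood p, adjusted by Benjamini-Hochberg over 17830 genes, was under 0.1, and in this comparison 14.5% of all tested genes were called (7.81% higher). The median log2 fold change was 0.021 over the 34 members and -0.013 over all tested genes, and the members ran from -0.19 (Grik1) to 0.30 (Neto1). At an unadjusted p under 0.05, 3 members passed, Neto1, Shisa6 and Grin2c, with 25.5% of all genes. In bulk tissue, fewer cells of a type and less RNA per cell cannot be told apart.

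**Figure D2:**
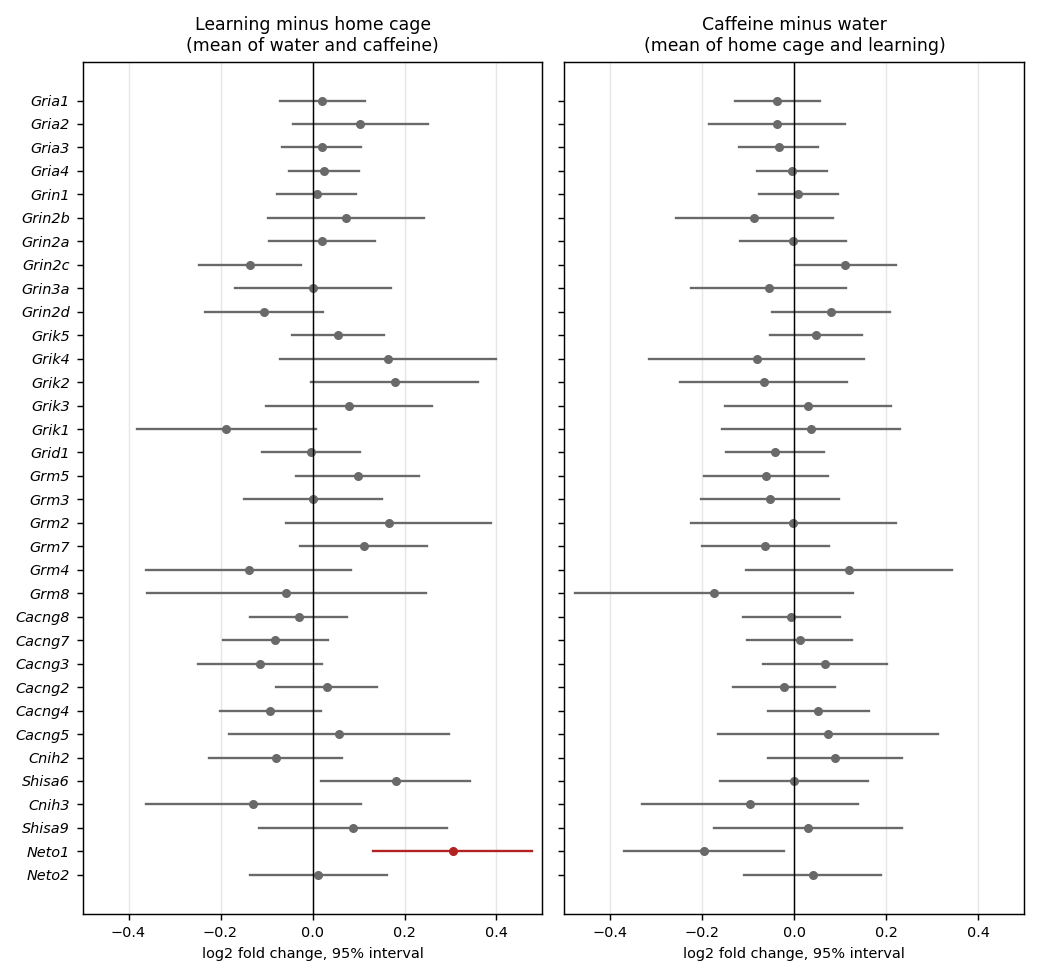
Log2 fold change (point) and 95% interval (line) of the 34 tested members in edgeR for learning minus home cage (left) and caffeine minus water (right), each the mean of both arms. The only interval drawn in red, Neto1 on the left at 0.30, marks the one call, and all 34 intervals on each side lie within ±0.5.

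Neto1 is a CUB-domain protein that slows kainate receptors at the mossy fibre synapse of CA3 and also binds NMDA receptors. Its level was 76.97, 84.7, 86.1 and 87.6 CPM in the home cage water mice, 75.6, 77.9, 85.6 and 50.8 CPM in the home cage caffeine mice, 119.7, 99.6, 92.6 and 97.8 CPM in the learning water mice and 99.5, 85.8, 88.8 and 87.6 CPM in the learning caffeine mice. Within each drink, every learning mouse was above every home cage mouse, although the learning caffeine mice overlapped with the home cage water mice. Under caffeine the nearest mice were at 85.8 and 85.6 CPM. Of all tested genes, 6.99% under water and 10.9% under caffeine did not overlap between home cage and learning mice, in either direction. The average rise was 0.30 on the log2 scale (SE 0.083, 95% interval 0.13 to 0.48, edgeR adjusted p = 0.0323), and DESeq2 gave an adjusted p of 0.00765. The call held in all 16 fits that left out 1 library, with log2 values from 0.24 to 0.35 and edgeR adjusted p from 0.0144 to 0.0525. The lowest of these log2 values, 0.24, was that without home cage caffeine mouse 17, the mouse with the least Neto1, and 0.27 was the value without learning water mouse 24, the mouse with the most. Taken separately, the difference was 0.29 (SE 0.12, edgeR adjusted p = 0.335) under water and 0.32 (SE 0.12, edgeR adjusted p = 0.150) under caffeine. Without mouse 17 the difference under caffeine was 0.19 (edgeR adjusted p = 0.303). Response under caffeine minus response under water came to 0.031 (95% interval -0.32 to 0.38), and it changed sign to -0.11 without mouse 17 and was 0.11 without mouse 24. Neto1 exons share 219 bases with AC113599.1 on the other strand.

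Marker genes of several cell types also differed between learning and home cage mice, and most of those called were lower. The 4 CA1 pyramidal markers summed to 462 to 686 CPM in the home cage mice and 367 to 580 CPM in the learning mice, with 4 of 4 below 0 in the average learning response and 1 called lower. Over the 16 mice, log2 Neto1 and log2 CA1 sum were negatively related (Pearson's r = -0.75, permutation p = 0.0016, adjusted p = 0.0369; Spearman's rho = -0.72, permutation p = 0.0023, adjusted p = 0.0807, adjusted over the 408 relations of 34 members with 12 marker lists). Within groups r was -0.67, and without learning water mouse 24 and home cage water mouse 6, the farthest from the median CA1 sum, it was -0.68. The CA3 sum overlapped between home cage (107 to 177 CPM) and learning mice (123 to 179 CPM). The 7 choroid plexus markers were all called lower in the average learning response, as were 3 of 6 microglia, 1 of 5 endothelial and 1 of 7 thalamus markers. In that comparison 1197 of all 17830 tested genes were called lower and 9637 were below 0. Of the 3 CA2 markers 1 was called higher, and of the 5 astrocyte markers 1 was called higher and 1 lower. No marker of CA3 or dentate granule cells, interneurons, oligodendrocytes or their precursors was called. The mitochondrial share was 3.46% to 4.49% in home cage and 3.23% to 3.59% in learning mice. No marker gene was at 0 in any library, and the part of these differences in the Neto1 result was not tested.

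Shisa6, which holds AMPA receptors at the synapse and keeps them from desensitizing, was second among the members that leaned higher. Shisa6 counts came to 198, 230.1, 183 and 193 CPM in the home cage water mice, 220.4, 226, 212 and 143 CPM in the home cage caffeine mice, 235, 233, 215 and 226 CPM in the learning water mice and 247, 218, 231 and 214 CPM in the learning caffeine mice. The learning mice lay within a narrow band that the upper home cage mice reached. The average difference was 0.18 (SE 0.077, edgeR adjusted p = 0.148), which missed the threshold, and it was 0.12 without home cage caffeine mouse 17. Grin2c, an NMDA receptor subunit known from cerebellar granule cells and astrocytes, leaned lower, with 71.9, 66.8, 62.7 and 59.8 CPM in the home cage water mice, 72.2, 70.6, 70.5 and 84.8 CPM in the home cage caffeine mice, 60.4, 64.1, 62.97 and 64.00 CPM in the learning water mice and 58.2, 61.4, 72.1 and 64.8 CPM in the learning caffeine mice. Mouse 17 again stood apart, now as the highest. The average learning difference of Grin2c was -0.14 (SE 0.053, edgeR adjusted p = 0.116), and -0.098 without mouse 17.

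For the other 31 members the intervals limit what could have been missed. In the average learning response all 34 intervals of 95% lay within ±0.5 on the log2 scale and 21 of them within ±0.25. The 4 AMPA subunits were between 0.020 and 0.10, and the interval of Gria1 ran from -0.071 to 0.11. Grin1 had an interval of -0.077 to 0.095 and Grin2a of -0.094 to 0.14, while Grin2b was less tightly held at -0.098 to 0.24. Of the 6 tested metabotropic receptors 4 were above and 2 below 0, between -0.14 (Grm4) and 0.17 (Grm2). Of the 6 TARPs 2 were above and 4 below 0, between -0.11 (Cacng3) and 0.058 (Cacng5). None of these passed the test.

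Under water, 0 of the 34 members were called by edgeR or by DESeq2 for learning against home cage, with 0.97% of all genes called by edgeR. The 1 member with an unadjusted p under 0.05 was Neto1, among 11.8% of all genes, and it was also the 1 member whose groups did not overlap, among 6.99%. Left out of the fit, home cage caffeine mouse 17 changed this count to 1, Neto1 with an edgeR adjusted p of 0.0790, although the mouse belongs to neither of these groups. Cacng5, a TARP of the type II class, was the next in order of p. Single mice had 17.02, 12.7, 10.7 and 12.7 CPM in the home cage water mice, 18.3, 21.8, 13.7 and 13.2 CPM in the home cage caffeine mice, 15.4, 14.6, 16.04 and 20.02 CPM in the learning water mice and 13.6, 16.2, 12.2 and 16.01 CPM in the learning caffeine mice for Cacng5. Learning water mice were mostly above home cage water mice but overlapped with them, with a log2 difference of 0.32 (SE 0.16, edgeR adjusted p = 0.462).

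Under caffeine, learning went with a fall of 1 of 34 members, Cacng4, where 5.28% of all tested genes were called and 2.13% were called lower. Cacng4 is a TARP most abundant during development. It was at 18.1, 17.5, 16.9 and 18.1 CPM in the home cage water mice, 21.7, 20.8, 19.8 and 19.5 CPM in the home cage caffeine mice, 20.04, 18.5, 17.3 and 18.1 CPM in the learning water mice and 18.7, 18.5, 16.3 and 15.02 CPM in the learning caffeine mice. All 4 learning caffeine mice were below all 4 home cage caffeine mice. The log2 difference was -0.25 (SE 0.073, 95% interval -0.41 to -0.099, edgeR adjusted p = 0.0755), and DESeq2 gave an adjusted p of 0.0371. This call depended on single libraries. It held in 10 of the 16 fits that left out 1 library and was lost without home cage caffeine mouse 2, 9 or 17, learning water mouse 33 or learning caffeine mouse 30 or 40, with edgeR adjusted p from 0.0631 to 0.213 over the 16 fits. It was also lost in a fit of these 8 libraries alone (edgeR adjusted p = 0.149). Groups that did not overlap were seen for Cacng4 (lower) and Neto1 (higher), with 10.9% of all genes not overlapping in either direction.

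Grin2c had a log2 difference of -0.22 under caffeine (SE 0.074, edgeR adjusted p = 0.129) and -0.14 without home cage caffeine mouse 17 (edgeR adjusted p = 0.355). With Cacng4 and Neto1 it made up the 3 members with an unadjusted p under 0.05, a level that 18.8% of all genes reached. Marker genes of glia and thalamus moved in the same comparison. The 5 astrocyte markers summed to 823 to 953 CPM in the home cage caffeine mice and 687 to 801 CPM in the learning caffeine mice without overlap, with 1 of the 5 called higher and 1 lower. All 7 oligodendrocyte markers were below 0, 1 of them called, with overlapping sums of 5225 to 8854 and 4922 to 6892 CPM, and 3 of 6 microglia markers were called lower. Of 7 thalamus markers 1 was called higher and 2 lower, and their sums overlapped, at 87.0 to 139.7 CPM in the home cage caffeine mice and 80.6 to 94.6 CPM in the learning caffeine mice. Their part in the Cacng4 and Grin2c values was not tested.

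**Figure D3:**
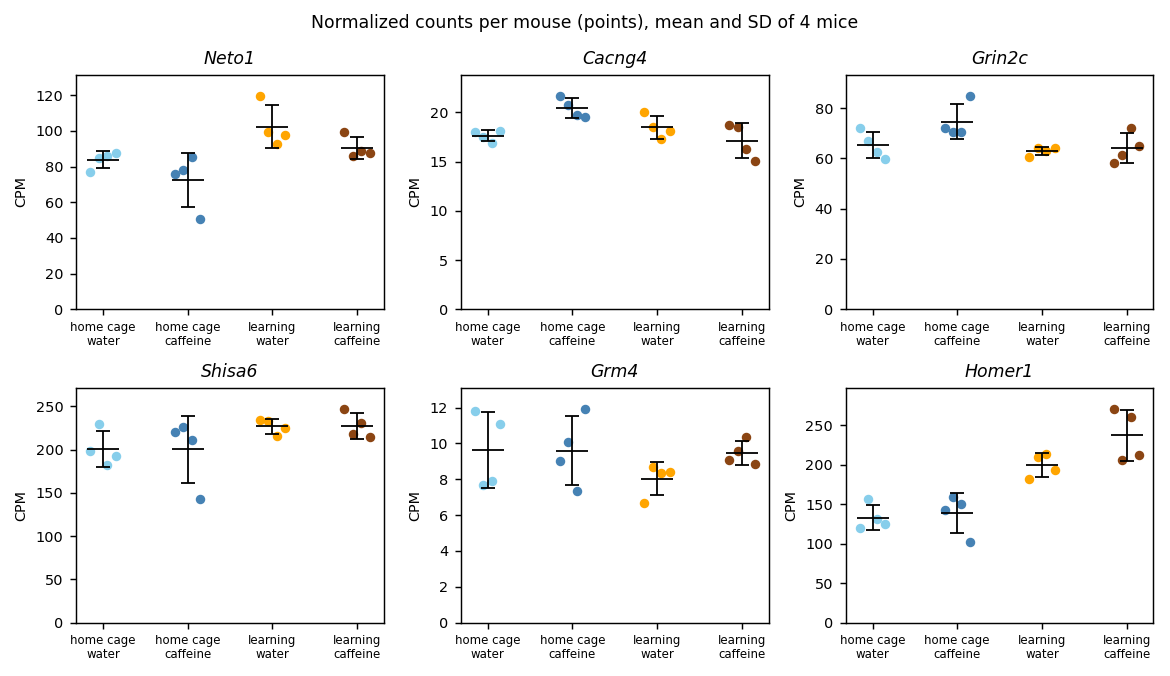
CPM per mouse (points) in the 4 groups with the mean and SD of 4 mice (black) for Neto1, Cacng4, Grin2c, Shisa6, Grm4 and Homer1. Neto1 and Homer1 are higher in learning than in home cage mice within each drink, and home cage caffeine mouse 17 is the low point for Neto1 and Shisa6 and the high point for Grin2c.

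The second question was whether caffeine changed these genes at rest. For home cage caffeine against home cage water, 0 of 34 members were called by edgeR or DESeq2, as were 0% of all tested genes by edgeR. At an unadjusted p under 0.05 stood 2 members, Grin2c and Cacng4, with 3.57% of all genes. The values of Cacng4 given above did not overlap between these groups, all 4 caffeine mice being higher, as was so for 0.981% of genes in that direction and 1.99% in either. Its log2 difference was 0.21 (SE 0.074, edgeR adjusted p = 0.997). That of Grin2c was 0.19 (SE 0.074, edgeR adjusted p = 0.997), and 0.13 without mouse 17. Both comparisons of Cacng4 use the same home cage caffeine mice. The median over members was -0.019, against -0.0031 over all genes, and 32 of the 34 intervals lay within ±0.5 (not those of Grm8 and Cacng5).

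After learning, caffeine against water gave 0 of 34 members called by edgeR or DESeq2 and 0 at an unadjusted p under 0.05, where 3.93% of all genes stood and 0% were called. Grm4, a presynaptic receptor best known from cerebellum, did not overlap between the learning groups, with 2.6% of all genes. Its mice read 11.8, 7.67, 7.92 and 11.1 CPM in the home cage water mice, 9.04, 10.1, 7.35 and 11.9 CPM in the home cage caffeine mice, 6.68, 8.70, 8.32 and 8.40 CPM in the learning water mice and 9.08, 9.55, 10.3 and 8.86 CPM in the learning caffeine mice. The learning caffeine mice were above the learning water mice, but apart from learning water mouse 24 both lay within the range of the home cage mice. The log2 difference was 0.24 (SE 0.15, edgeR adjusted p = 0.999). Neto1, the other of the pair with the smallest p, was at -0.18 (SE 0.12, edgeR adjusted p = 0.999), and at -0.094 without learning water mouse 24.

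Averaged over home cage and learning, the caffeine effect was called for 0 of 34 members by edgeR or DESeq2, with 0% of all genes called by edgeR. Neto1, at -0.20 (SE 0.083, edgeR adjusted p = 0.985), and Grin2c, at 0.11 (SE 0.053, edgeR adjusted p = 0.985), were the 2 members with an unadjusted p under 0.05, among 4.07% of all genes. Without mouse 17 they were at -0.12 and 0.079. All 34 intervals were within ±0.5 and 27 within ±0.25, among them those of Gria1 (-0.13 to 0.056), Gria2 (-0.19 to 0.11), Grin1 (-0.078 to 0.095) and Grm5 (-0.20 to 0.072).

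The third question was whether caffeine altered the response to learning. The difference between the learning responses, that under caffeine minus that under water, was called for 0 of 34 members by edgeR or DESeq2, with 0% of all genes called by edgeR. Cacng4 at -0.32 (SE 0.10, edgeR adjusted p = 0.99996) and Cacng5 at -0.52 (SE 0.23, edgeR adjusted p = 0.99996) were the 2 with an unadjusted p under 0.05, among 3.63% of all genes. These neighbouring genes share the mice of both responses. Of the 34 intervals 26 lay within ±0.5 and all within ±1.

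Ratios of subunits within a receptor were then compared, since the mix of Grin2a and Grin2b sets NMDA receptor kinetics and the mix of Gria1 and Gria2 sets calcium entry through AMPA receptors. The log2 ratio of Grin2a to Grin2b in RPKM had group means of -0.14, -0.026, -0.17 and -0.11 in the 4 groups. Those of Gria1 to Gria2 were 1.62, 1.66, 1.58 and 1.54. Over the 8 comparisons of 4 against 4 mice the exact two-sided permutation p ranged from 0.171 to 0.800, and after adjustment over the 8 from 0.718 to 0.800, where the smallest p the design allows is 0.0286. The largest shifts were -0.12 for Gria1 to Gria2 with learning under caffeine and 0.12 for Grin2a to Grin2b with caffeine at rest, and the latter was 0.048 without mouse 17.

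The wider glutamate pathway was read from 3 lists: 17 genes of glutamate transport and metabolism, 23 receptor scaffolds and signalling partners, and 20 other proteins of receptor complexes. In the average learning response 1 of 17, 2 of 23 and 2 of 20 were called higher by edgeR and none lower. By edgeR 7.81% of all tested genes were called higher. DESeq2 called 1, 4 and 3 in either direction, adding Dlg1, Grip1 and Lrrtm1. Its share over all genes is not given here, so its added calls have no background beside them. In the simulation described below, DESeq2 called 51 of 17630 unchanged genes and edgeR 14 of 17462. DESeq2 also recovered more of the changed genes, 35 of 67 against 27 of 67 at 0.3 on the log2 scale. At 0.5 it recovered 57 of 67 against 54 of 67. The simulated counts took their spread from the edgeR fit, so the simulation does not rank the 2 tools. Homer1, the scaffold that links Grm5 to intracellular calcium stores and whose short form is induced by activity, had 119.8, 156, 131 and 124 CPM in the home cage water mice, 143, 159, 149.9 and 102 CPM in the home cage caffeine mice, 182, 209, 214 and 193 CPM in the learning water mice and 270.0, 206, 259.8 and 211 CPM in the learning caffeine mice. All learning mice were above all home cage mice. Homer1 rose by 0.59 on the log2 scale under water (SE 0.12, edgeR adjusted p = 0.0429) and by 0.77 under caffeine (SE 0.12, edgeR adjusted p = 0.00369), and it was the only gene of the 3 lists that edgeR called in either. Under caffeine DESeq2 also called Slc1a1 and Nptx1, of the other 2 lists.

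edgeR called the other 4 in the average learning response and under neither drink taken by itself. Abhd6, a lipase that binds AMPA receptors, was 0.17 higher (SE 0.044, edgeR adjusted p = 0.0286) and Nptx1, a secreted pentraxin that clusters AMPA receptors, 0.25 higher (SE 0.088, edgeR adjusted p = 0.0894). Dlg2, a scaffold of NMDA receptors, was 0.13 higher (SE 0.045, edgeR adjusted p = 0.0825) and Slc1a1, the neuronal glutamate transporter, 0.096 higher (SE 0.035, edgeR adjusted p = 0.0929). With 1 library left out, the call of Abhd6 held in all 16 fits, as did that of Homer1, while Dlg2 was called in 9, Slc1a1 in 7 and Nptx1 in 6 of the 16, with edgeR adjusted p up to 0.146, 0.164 and 0.130. Without home cage caffeine mouse 17 these 3 calls were lost, and the log2 values were 0.099 for Dlg2, 0.089 for Slc1a1 and 0.19 for Nptx1. All 3 were also lost without home cage water mouse 20, learning water mouse 33 or 38, or learning caffeine mouse 30 or 40. Single or paired losses came without home cage water mouse 6 (Dlg2 and Nptx1) or 11 (Slc1a1), home cage caffeine mouse 9 (Slc1a1), learning water mouse 24 (Nptx1) or 36 (Slc1a1 and Nptx1), and learning caffeine mouse 22 (Nptx1). No gene of the 3 lists was called for caffeine against water at rest or after learning by edgeR or DESeq2, while Shank1 and Shank3 of the scaffold list at rest, and Gsg1l, Shisa7 and Nptx2 of the other complex proteins after learning, had an unadjusted p under 0.05, names given here after their values were seen. They were 2 of 23 and 3 of 20 genes, all higher under caffeine. Of all tested genes, 3.57% at rest and 3.93% after learning reached that level in either direction. In the same libraries, 9 of 10 immediate early genes were called higher with learning under water and 8 of 10 under caffeine. Their medians were 1.02 and 0.98 on the log2 scale, and 114 and 563 of all 17830 tested genes were called higher. Fosb and Nr4a1, whose start-site stretches are printed above, were among the immediate early genes called under both drinks. Dusp1 was at 0.44 and 0.22 without a call. In the average learning response all 10 were called higher, Dusp1 among them, where 7.81% of all tested genes were. For caffeine against water at rest all 10 were above 0 (median 0.32), with 0 called by edgeR and 1 by DESeq2. After learning 9 of 10 were above 0 (median 0.12), with 0 called by either.

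The levels of some members went with markers of hippocampal fields from mouse to mouse. All 408 relations of members with marker lists were computed after the values had been seen. For 6 of them both r and rho had an adjusted permutation p under 0.05 over the 16 mice. With the summed level of 6 dentate granule markers, Shisa9 had r = 0.87 and rho = 0.85, Grik2 had r = 0.83 and rho = 0.81, Grm2 had r = 0.82 and rho = 0.79, Gria2 had r = 0.81 and rho = 0.80, and Grm7 had r = 0.72 and rho = 0.79. The permutation p of r lay between 2e-05 (Shisa9) and 0.00029 (Grm7), or 0.00544 and 0.0148 after adjustment, and that of rho between 0.00011 and 0.00049, or 0.0367 and 0.0400. With the 4 CA3 markers, Cnih3 had r = -0.86 (permutation p = 4e-05, adjusted p = 0.00544) and rho = -0.77 (permutation p = 0.00067, adjusted p = 0.0456). Grik2, Grm2 and Shisa9 are genes known from dentate granule cells and their mossy fibre synapses.

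Leaving out the 2 mice farthest from the median marker sum gave r of 0.84 for Shisa9, 0.83 for Grik2, 0.82 for Grm2, 0.78 for Gria2, 0.73 for Grm7 and -0.88 for Cnih3, and within groups r was 0.91, 0.83, 0.82, 0.82, 0.70 and -0.85 in the same order. The dentate sum itself ran from 423 to 688 CPM in home cage water, 408 to 699 in home cage caffeine, 480 to 714 in learning water and 477 to 674 CPM in learning caffeine mice, with overlap between all groups. Both measures of a relation come from the same library. Over all 561 pairs of tested members the median r was 0.065, from -0.86 to 0.90.

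**Figure D4:**
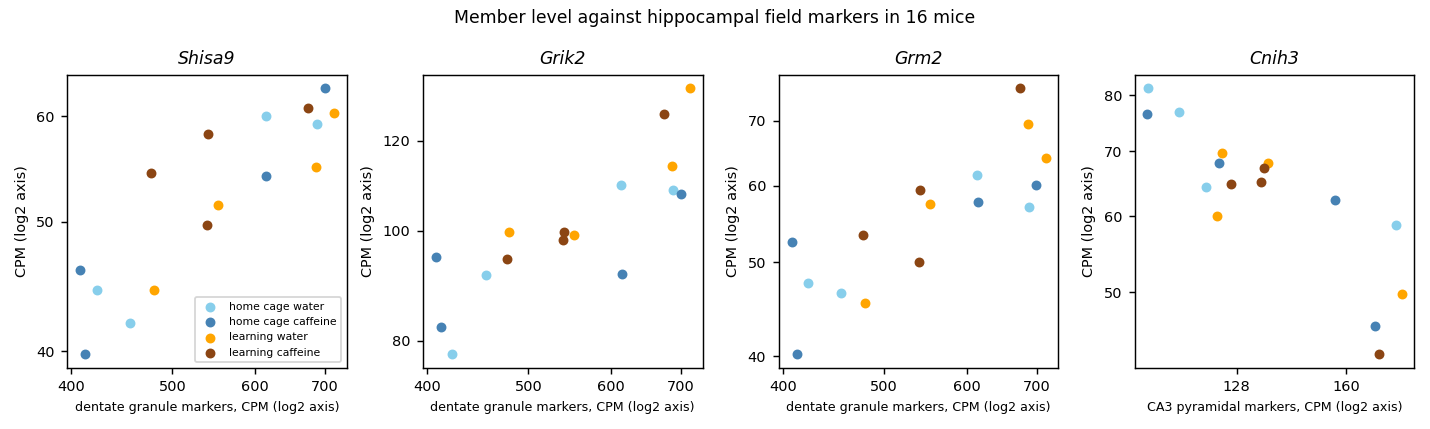
Level of Shisa9, Grik2 and Grm2 (CPM, log2 axis) against the summed CPM of 6 dentate granule markers, and of Cnih3 against that of 4 CA3 markers, in 16 mice colored by group. The first 3 genes increase with the dentate sum (r of 0.87, 0.83 and 0.82) and Cnih3 decreases with the CA3 sum (r of -0.86), with mice of all 4 groups mixed along the trend.

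**Figure D5:**
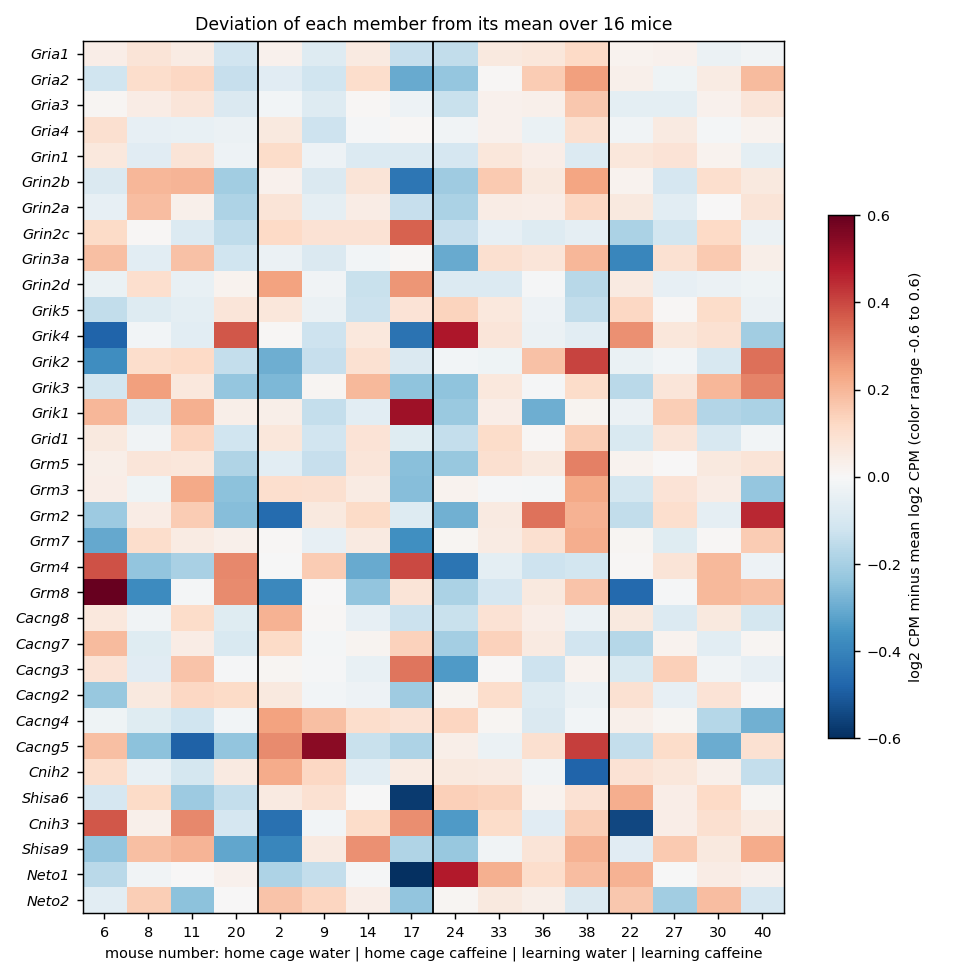
Log2 CPM of the 34 tested members in each mouse minus the mean of the 16 mice (color), with mice in columns by group. Home cage caffeine mouse 17 is low for Neto1 and Shisa6, and learning water mouse 24 is high for Neto1 and Grik4.

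In the color map of all members, Grik4 stands out in 2 mice, with 103 CPM in learning water mouse 24 and 52.4 CPM in home cage water mouse 6 against a mean of 74.3 over all mice. These are the mice whose CA1 sum was farthest from the median. Grik4 had r = 0.77 with the CA3 sum (permutation p = 0.00033, adjusted p = 0.0150) and rho = 0.74 (permutation p = 0.00146, adjusted p = 0.0596), and r fell to 0.62 without learning water mouse 24 and home cage water mouse 20.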

How the data were processed

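RNA was measured in 16 dorsal hippocampi (4 groups of 4 mice, grouped by GEO's labels). The deposited values are raw counts per Ensembl gene that the authors made from stranded poly(A) libraries, with bcl2fastq 2.17.1.14, STAR (build mm10) and HTSeq 0.6.1p1 named in the submitters' processing notes. There are no molecular identifiers, whether strand was used in counting is not given in the sources used here, and 0 columns were left unused. Symbols were matched through GENCODE M21 (35247 of 35328 genes). Counts were analysed in R 4.3.3 with edgeR 4.0.16: TMM, filterByExpr (17830 genes), 1 mean per group over 16 libraries, the quasi-likelihood test, Benjamini-Hochberg adjustment over all tested genes and a threshold of 0.1. Replicates are separate mice, and correlations used 100000 permutations. No pair of libraries of the same group agreed within sampling noise (chi-square per degree of freedom of at least 5.65), and pairs between groups were not compared. In a simulation of the learning comparison under caffeine (17662 genes, changes given to genes with at least 200 counts on average), edgeR recovered 27 of 67 genes changed by 0.3 on the log2 scale, 54 of 67 by 0.5 and 66 of 66 by 1, with 14 of 17462 unchanged genes called.

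The members, lists and rules were chosen with earlier results of these data known. By the rule for named genes, a member is given in every mouse if it is called in any comparison, is among the 3 of smallest p in the average learning response or the 2 in another comparison, or leads its family per length, and list genes are named if called. Cnih3, Grm7, Grik2, Grm2, Gria2, Shisa9 and Grik4 were named in the marker relations after their values were seen. Alternatives were DESeq2 1.42.0 (its size factors in edgeR, and its Wald test), edgeR on the 8 libraries of a comparison, 2 other count filters, a threshold of 0.05, robust empirical Bayes, a length and GC correction, thinning to 23078094 counts, another gene length and each library left out.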

Additional observations from a re-analysis of the deposited data

Results flagged for a closer look

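In 9 of 136 sets of 4 mice (34 members in 4 groups), 1 mouse stood apart from the other 3 by Dixon's test at the 95% level. Chance alone flags about 1 in 20 such sets.

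Home cage caffeine mouse 17 stood apart for 3 genes, with 84.8 CPM of Grin2c against 70.5 to 72.2 in the others of its group, 64.1 CPM of Cacng3 against 49.7 to 51.7, and 29.3 CPM of Grm3 against 36.2 to 37.6. Learning water mouse 38 stood apart with 276 CPM of Cnih2 against 380.3 to 401 and with 41.0 CPM of Grm3 against 34.7 to 35.6. In the home cage water group, mouse 6 had 68.6 CPM of Gria4 against 61.9 to 62.5, and mouse 20 had 270.0 CPM of Grm5 against 314 to 323. Among learning caffeine mice, mouse 40 had 127 CPM of Grik2 against 94.5 to 99.8, and mouse 22 had 43.2 CPM of Cnih3 against 64.8 to 67.2.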

How the results depend on the processing

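Of 368 alternative values for 15 named results, 352 kept direction and side of the threshold, 9 lost it, 7 gained it and 0 changed direction. The 15 were picked as the members of smallest p in each comparison, so a kept direction was likely from the start. The Neto1 difference between the learning responses was not among them, and it changed sign without home cage caffeine mouse 17. In the average learning response, the number of members called was 2 when every gene with 1 count or more was kept (Shisa6 added) and 2 with a filter of at least 10 counts in every library (Grin2c added), and 1 to 2 with a library left out: Shisa6 was added without home cage water mouse 8 or home cage caffeine mouse 2, Grm5 without learning water mouse 24 and Grin2c without learning caffeine mouse 30. Under caffeine, for learning against home cage, it was 2 by DESeq2 (Cacng4 and Neto1), 0 at an adjusted p under 0.05, 0 in edgeR on the 8 libraries, and 0 to 2 with a library left out. It was 2 without home cage caffeine mouse 14 (Cacng4 and Neto1), and without learning caffeine mouse 30 the 1 call was Grin2c (edgeR adjusted p = 0.0944) in place of Cacng4. Under water it was 0 to 1, the 1 being Neto1 without home cage caffeine mouse 17. The cause of these changes was not tested, and the share of all genes that DESeq2 called is not given here. The other counts, all 0, did not change under any alternative run, and every median over members moved by less than 0.068, its SD over mice. The medians themselves lay between -0.019 and 0.029, so a shift within that bound could change their sign. With the longest transcript as gene length, 2 NMDA receptor subunits and 2 metabotropic receptors changed rank within their family. No paired analysis was possible because no pair of groups shares a replicate number. Depth limits Grm8, with at least 100 counts per library, more than the other tested members, and 4 mice per group leave changes of 0.3 often uncalled.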
